A study of Mus musculus with 36 samples.

Results

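A set of 10 genes that build, load or switch on MHC class I molecules were followed through the sorted stroma of the mouse thymus: Tap1, Tap2, Tapbp, B2m, Nlrc5, H2-K1, H2-D1, Erap1, Calr and Pdia3. A gene was read from the array probe sets whose platform annotation gives its symbol alone, and where several existed the one with the highest mean over all arrays was used. The 10 genes were 10 of the 18193 genes measured in this way, and all 10 were among the 14495 genes tested. RNA of 36 samples had been hybridised to Affymetrix arrays of the mouse genome. The cells came from enzymatically digested thymi of male wild-type C57BL/6J mice aged 1, 3 or 6 months and were separated by flow cytometry into Sirpa+DC, Sirpa-DC, cTEC, mTEChi, mTEClo and fibroblasts, with 2 arrays for each population and age. DC are dendritic cells, cTEC and mTEC are the epithelial cells of the thymic cortex and medulla, and hi and lo are the submitters' names for 2 mTEC fractions. The labels give a mouse to each sample and the design text gives 2 mice to each age, so samples of different populations may share an animal, and the p-values below measure only the spread between these samples, which may be technical.

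MHC class I molecules show peptides from inside the cell to CD8 T cells, and in the thymus such peptides on stromal cells take part in choosing which thymocytes survive. A heavy chain (H2-K1 or H2-D1) pairs with beta-2-microglobulin (B2m) in the endoplasmic reticulum, the transporter of Tap1 and Tap2 brings peptides in, and tapasin (Tapbp), calreticulin (Calr) and the disulfide isomerase ERp57 (Pdia3) hold the empty molecule at the transporter. Erap1 trims the peptides, and Nlrc5 is the transactivator that acts on the promoters of class I genes.

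Promoter sequences are shown for 4 of these genes. RefSeq windows of GRCm38.p6 matched 8 of the 10 genes, and Nlrc5 and Tap2 were not matched. The windows below are the 180 bases upstream of the listed start, in the direction of transcription. Those of B2m, H2-K1 and H2-D1 are shown because Nlrc5 is known to act on such promoters, and that of Calr because it is a chaperone of the endoplasmic reticulum. In capitals are TGACG followed after 20 bases by ATTGG, GGGGATTCCCC, GAAANNGAAA, and, in Calr, CCAAT followed after 9 bases by CCACG, read on the opposite strand.
B2m, chr2:122147507-122147686, plus strand: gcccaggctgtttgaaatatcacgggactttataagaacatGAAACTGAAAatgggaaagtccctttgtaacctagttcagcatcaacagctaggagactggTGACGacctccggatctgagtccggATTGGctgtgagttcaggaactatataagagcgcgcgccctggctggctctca
H2-K1, chr17:34000348-34000527, minus strand: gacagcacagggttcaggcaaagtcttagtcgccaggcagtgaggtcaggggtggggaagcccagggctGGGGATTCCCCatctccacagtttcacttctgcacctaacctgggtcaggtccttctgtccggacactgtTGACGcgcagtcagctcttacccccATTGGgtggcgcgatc
H2-D1, chr17:35262914-35263093, plus strand: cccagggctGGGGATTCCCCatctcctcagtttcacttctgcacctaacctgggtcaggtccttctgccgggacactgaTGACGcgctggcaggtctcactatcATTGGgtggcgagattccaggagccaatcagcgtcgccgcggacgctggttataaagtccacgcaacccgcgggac
Calr, chr8:84846932-84847111, minus strand: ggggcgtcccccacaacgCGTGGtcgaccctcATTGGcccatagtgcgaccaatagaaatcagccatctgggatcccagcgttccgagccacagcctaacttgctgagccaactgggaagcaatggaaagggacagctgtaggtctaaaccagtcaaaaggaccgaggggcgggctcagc

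All 4 patterns were searched on both strands in the 250 bases upstream of 32851 listed starts, those of 27025 genes, and a match is a description of letters. TGACG, 20 bases, ATTGG lay in 0.0913% of windows, which belonged to 26 genes, among them B2m, H2-K1, H2-D1 and the non-classical class I gene H2-M3. This pattern was put together after these sequences had been read. GGGGATTCCCC lay in 0.0304% of windows, among them those of H2-K1 and H2-D1, and GAAANNGAAA in 2.98%, of the 8 genes with a window in B2m alone. The Calr pattern, which has the letters of an endoplasmic reticulum stress element, lay in 0.113% of windows, those of 35 genes, and also in 5 of the 18 listed chaperone and stress genes with a window (Canx, Hspa5, Hsp90b1, Pdia6 and Creld2).

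Values are log2 levels as deposited, and the array medians lay between 5.61 and 5.74. The 2 arrays of a group correlated across genes at 0.949 (mTEChi at 6 months) to 0.994 (Sirpa+DC at 6 months), with precision limited by how few arrays there are. The mean of the cTEC markers was 10.44 in cTEC, and conventional type 1 DC markers averaged 10.57 in Sirpa-DC, against 8.87 in Sirpa+DC. Macrophage markers averaged 10.81 in Sirpa+DC, 8.21 in Sirpa-DC and 7.05 in mTEChi, and at most 5.90 in cTEC, mTEClo and fibroblasts. The fibroblast samples went partly against their label: all 13 measured thymocyte markers were above the pooled median of 5.66 in every fibroblast array, and their mean was 8.78 to 11.12 there, against 5.67 to 8.68 in the 30 other arrays. Results on fibroblasts below are therefore given beside those levels.

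Nlrc5 separated the populations more than the other 9 genes did. Its level was high in both DC populations, intermediate in both mTEC populations, and low in cTEC and fibroblasts. The lowest, median and highest of 6 arrays were 10.34, 10.54 and 11.15 in Sirpa+DC and 10.38, 10.58 and 10.87 in Sirpa-DC. They were 9.24, 9.70 and 10.19 in mTEClo and 9.02, 9.53 and 9.78 in mTEChi. They were 7.19, 7.97 and 8.42 in cTEC and 7.42, 7.86 and 8.33 in fibroblasts. No array of a DC population overlapped with any array of another population, and no mTEC array overlapped with cTEC or fibroblasts. With limma and Benjamini-Hochberg adjustment over all genes tested, the mean of both DC populations was above that of the 3 epithelial populations by 1.58 ± 0.11 (SE) on the log2 scale, a 3.00-fold difference (adjusted p = 3.45e-12). cTEC were 1.67 ± 0.15 below the mean of both mTEC populations, 3.18-fold (adjusted p = 1.54e-09). Thymocyte markers moved with this difference. At adjusted p under 0.05, 9 of 13 were at least 2-fold higher in cTEC than the mean of both mTEC populations and none lower. Over all genes 5.4% were higher and 8.24% lower by this rule. The mean level of these markers was 7.80 in cTEC, against 6.14 in mTEChi and 6.10 in mTEClo. With their mean as a covariate the Nlrc5 difference was -1.35 (adjusted p = 0.00367). In these bulk samples fewer cells of a type and less RNA per cell cannot be told apart.

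The range of the 6 population means of Nlrc5 was 2.77 log2 units, above that of 83.6% of the genes tested, whose median range was 1.13. In the order of levels, neighbours differed at 2 steps: Sirpa-DC exceeded mTEClo by 0.90 (adjusted p = 0.000103), and mTEChi exceeded cTEC by 1.55 (adjusted p = 4.14e-08). Sirpa+DC and Sirpa-DC were not distinguished, with a difference of 0.02 (95% interval -0.35 to 0.38), nor were mTEChi and mTEClo, with -0.24 (-0.61 to 0.13). Nlrc5 was the only 1 of the 10 genes past 2-fold at adjusted p under 0.05 in 5 comparisons: Sirpa+DC against the other 5 populations (2.85-fold higher), Sirpa-DC (2.81-fold higher), cTEC (3.32-fold lower), cTEC against both mTEC populations, and DC against epithelium. The shares of all genes called by this rule were 16.9%, 19.2%, 16.1%, 13.6% and 24.5% in that order of comparisons. Each of these 5 differences held under every alternative and without any 1 array. Nlrc5 had 1 probe set, however, so averaging every probe set left its values as they were.

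**Figure D1:**
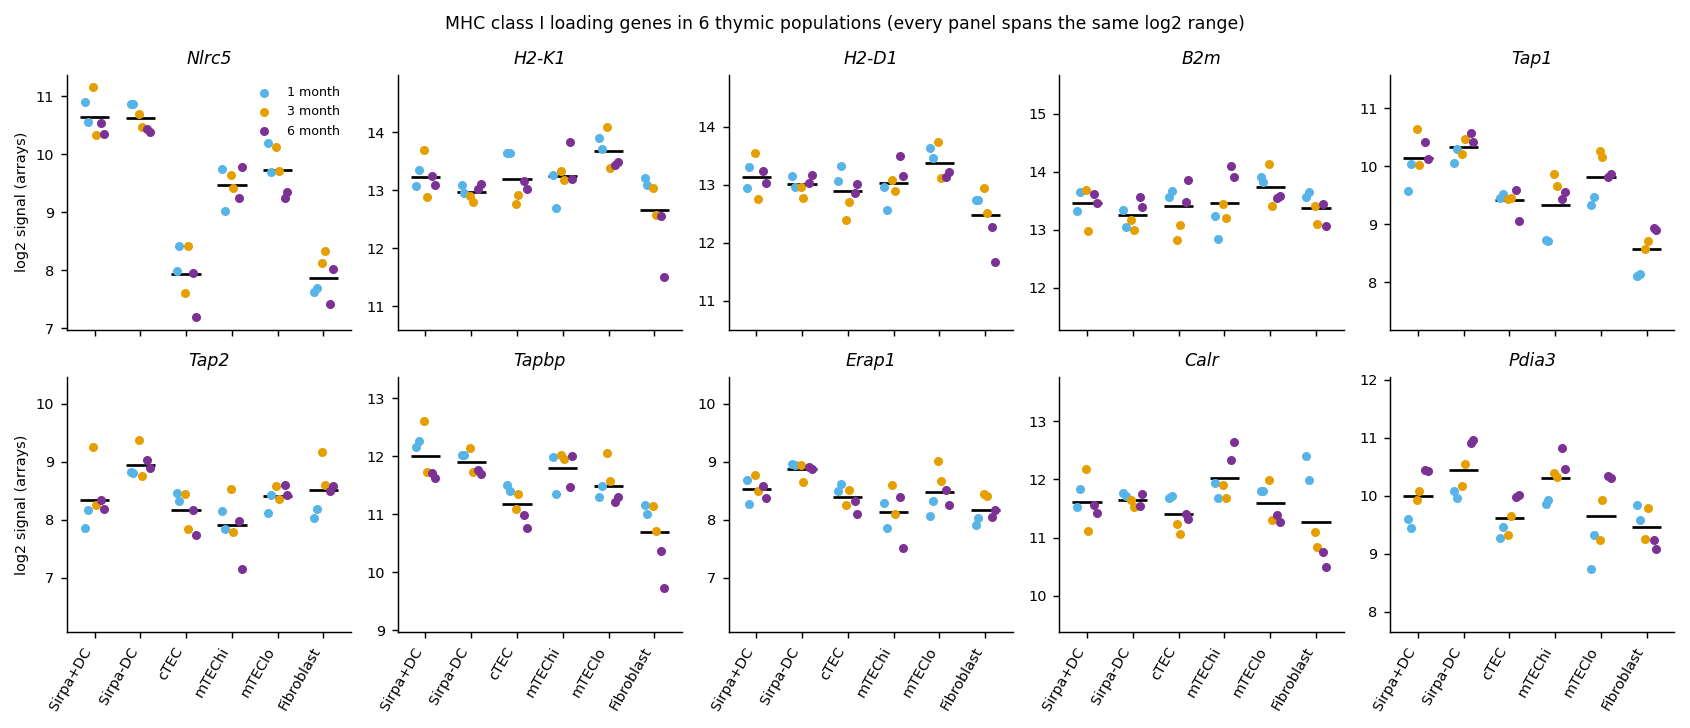
Log2 level of each of the 10 genes in every array, with populations on the horizontal axis, age as colour and the mean of 6 arrays as a bar. Nlrc5 lies above 10 in all DC arrays and below 9 in all cTEC and fibroblast arrays, while the 6 population means of B2m lie within 0.48 log2 units.

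The molecule itself followed another order. B2m, the light chain, had population means of 13.45 ± 0.27 in Sirpa+DC, 13.25 ± 0.22 in Sirpa-DC, 13.41 ± 0.38 in cTEC, 13.46 ± 0.47 in mTEChi, 13.73 ± 0.27 in mTEClo and 13.38 ± 0.24 in fibroblasts (SD, n = 6). No neighbours in this order differed beyond the spread, and the range of the means, 0.48, was above that of 13.5% of genes. H2-K1, a classical heavy chain, was highest in mTEClo on the mean over ages, where its lowest, median and highest arrays were 13.37, 13.60 and 14.09. It averaged 13.25 ± 0.36 in mTEChi, 13.22 ± 0.29 in Sirpa+DC, 13.19 ± 0.37 in cTEC, 12.98 ± 0.12 in Sirpa-DC and 12.66 ± 0.63 in fibroblasts (SD, n = 6). All mTEClo arrays lay above all Sirpa-DC and fibroblast arrays, and they overlapped with Sirpa+DC, cTEC and mTEChi. mTEClo exceeded the other 5 populations by 0.61 for H2-K1 (adjusted p = 0.00027), by 0.47 for the other heavy chain, H2-D1 (adjusted p = 0.000635), and by 0.34 for B2m. None of the 10 genes reached 2-fold there, where 14.8% of all genes were called. At 6 months the mTEClo means were not the highest for H2-K1, H2-D1 or B2m (n = 2). H2-K1 averaged 13.52 in mTEChi and 13.46 in mTEClo, and H2-D1 averaged 13.32 in mTEChi and 13.18 in mTEClo. B2m averaged 14.01 in mTEChi, 13.67 in cTEC and 13.56 in mTEClo.

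By the chosen probe sets, the heavy and light chains showed no rise from epithelium to DC to set beside that of Nlrc5. H2-K1 was 0.27 lower in DC (adjusted p = 0.0244), B2m was 0.18 lower (adjusted p = 0.0557), and H2-D1 differed by -0.02 (95% interval -0.21 to 0.16). The chosen probe sets of both heavy chains are of a design that can cross-hybridise with related sequences, and each gene had 2 further probe sets shared between symbols, which were not used. These transcripts also lay near the top of the scale. The level exceeded by 0.1% of an array's probe sets was 12.54 to 13.64 in mTEChi, 12.98 to 13.62 in mTEClo and 12.76 to 13.56 in Sirpa+DC. How far such levels can rise on these arrays was not tested. An H2-D1 probe set of another design lay lower on the scale and correlated with the chosen one at 0.79 over the 18 group means. It averaged 10.56 in Sirpa+DC, 10.555 in Sirpa-DC, 9.68 in cTEC, 10.475 in mTEChi, 11.0 in mTEClo and 9.40 in fibroblasts. By this probe set cTEC and fibroblasts were the 2 lowest populations, as for Nlrc5, and mTEClo was the highest.

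**Figure D2:**
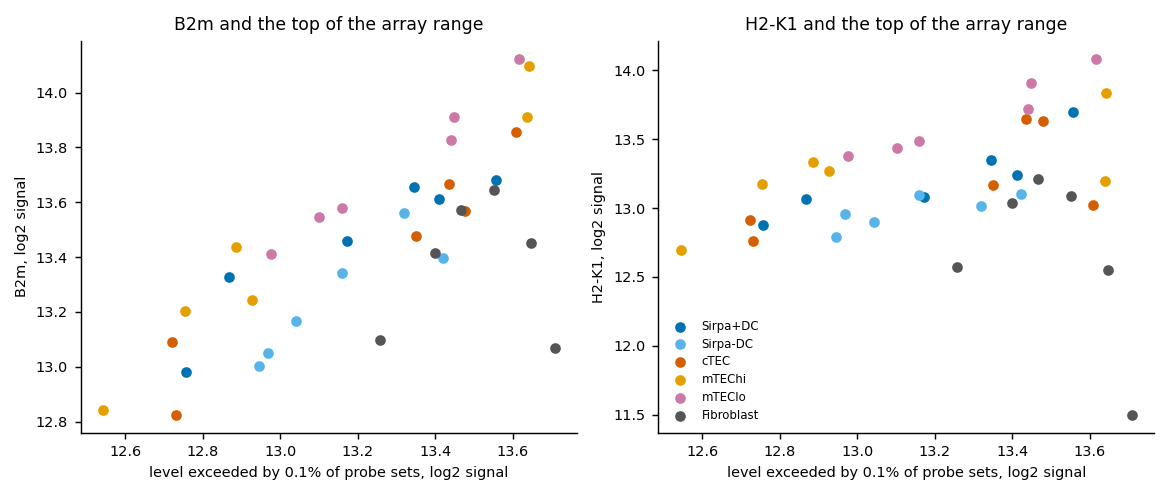
Log2 level of B2m and H2-K1 (vertical axis) against the level exceeded by 0.1% of the probe sets of the same array (horizontal axis), with 1 point per array and colour for population. Both genes lie near or above that level in most arrays, and outside the fibroblast arrays they are higher where it is higher.

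Of the peptide transporter, Tap1 was highest in DC and lowest in fibroblasts. The lowest, median and highest arrays were 9.57, 10.08 and 10.65 in Sirpa+DC and 10.06, 10.36 and 10.57 in Sirpa-DC. They were 9.05, 9.46 and 9.60 in cTEC, 8.71, 9.50 and 9.88 in mTEChi and 9.34, 9.84 and 10.26 in mTEClo. They were 8.12, 8.65 and 8.95 in fibroblasts. All Sirpa-DC arrays lay above cTEC and mTEChi and overlapped with mTEClo, Sirpa+DC overlapped with all 3 epithelial populations, and fibroblasts overlapped only with mTEChi. That overlap was of mTEChi arrays from 1-month mice with fibroblast arrays from 3-month and 6-month mice. Tap1 was 0.71 ± 0.07 higher in DC than in epithelium (1.64-fold, adjusted p = 2.54e-09) and 1.24 lower in fibroblasts than in the other 5 populations (2.36-fold, adjusted p = 5.58e-12).

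Tap2, the other transporter subunit, averaged 8.94 ± 0.23 in Sirpa-DC, 8.34 ± 0.47 in Sirpa+DC, 8.16 ± 0.31 in cTEC, 7.91 ± 0.46 in mTEChi, 8.41 ± 0.18 in mTEClo and 8.51 ± 0.40 in fibroblasts (SD, n = 6). It had 1 probe set. Sirpa+DC were 0.60 below Sirpa-DC (adjusted p = 0.0155), and the only neighbours in the order that differed were Sirpa-DC and fibroblasts, by 0.44 (adjusted p = 0.038). Fibroblasts thus held the second place for Tap2 and the last for Tap1.

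Tapasin (Tapbp), which bridges the transporter and the empty class I molecule, averaged 12.01 ± 0.39 in Sirpa+DC, 11.90 ± 0.19 in Sirpa-DC, 11.18 ± 0.28 in cTEC, 11.80 ± 0.30 in mTEChi, 11.49 ± 0.31 in mTEClo and 10.69 ± 0.55 in fibroblasts (SD, n = 6). It was higher in DC than in epithelium by 0.47 and lower in cTEC than in both mTEC populations by 0.46. In fibroblasts it was 0.99 lower than in the others, 1.98-fold (adjusted p = 4.42e-08). The trimming peptidase Erap1 averaged 8.53 ± 0.18 in Sirpa+DC, 8.88 ± 0.12 in Sirpa-DC, 8.38 ± 0.19 in cTEC, 8.12 ± 0.39 in mTEChi, 8.47 ± 0.33 in mTEClo and 8.17 ± 0.22 in fibroblasts. DC exceeded epithelium by 0.38, and no neighbours in the order differed. A second Tapbp probe set correlated with the chosen one at 0.53 over the 18 group means. It averaged 7.26 in Sirpa+DC, 7.17 in Sirpa-DC, 6.57 in cTEC, 6.78 in mTEChi, 6.51 in mTEClo and 6.53 in fibroblasts. By that probe set mTEClo, not fibroblasts, were thus the lowest. A second Erap1 probe set correlated with the chosen one at 0.63 and had its highest mean, 7.86, in cTEC.

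On the mean over ages, the 2 chaperones were higher in mTEChi than in mTEClo, and the transporter and heavy chains were lower. Calr averaged 11.61 ± 0.37 in Sirpa+DC, 11.66 ± 0.11 in Sirpa-DC, 11.40 ± 0.25 in cTEC, 12.03 ± 0.38 in mTEChi, 11.59 ± 0.31 in mTEClo and 11.27 ± 0.76 in fibroblasts. Pdia3 averaged 9.99 ± 0.42 in Sirpa+DC, 10.44 ± 0.44 in Sirpa-DC, 9.62 ± 0.32 in cTEC, 10.30 ± 0.36 in mTEChi, 9.64 ± 0.65 in mTEClo and 9.46 ± 0.32 in fibroblasts (SD, n = 6). mTEChi exceeded mTEClo by 0.44 for Calr (adjusted p = 0.00996) and by 0.65 for Pdia3 (adjusted p = 8.8e-05). In the same comparison mTEChi were lower for Tap1 by 0.49 (adjusted p = 0.000663), Tap2 by 0.51, H2-K1 by 0.42, H2-D1 by 0.36 and Erap1 by 0.35. None of these 7 differences reached 2-fold, where 19.6% of all genes passed that rule. Both other Calr probe sets were also highest in mTEChi. A second Pdia3 probe set correlated with the chosen one at 0.38 over the 18 group means. It averaged 7.14 in mTEChi and 7.01 in mTEClo, and its highest mean was 7.17, in cTEC. The pooled values hide ages that differ: Calr averaged 11.81 in mTEChi, against 11.80 in mTEClo, at 1 month, 11.79 against 11.64 at 3 months, and 12.49 against 11.33 at 6 months (n = 2). H2-D1 averaged 12.77 in mTEChi, against 13.55 in mTEClo, at 1 month, and 13.32 against 13.18 at 6 months. H2-K1 averaged 12.98 in mTEChi, against 13.81 in mTEClo, at 1 month, and at 6 months stood as given above. By the chosen probe sets the lower heavy chain levels of mTEChi were thus not seen at 6 months. Other probe sets went both ways at that age. Those of H2-K1 gave, among others, 11.60 in mTEChi against 11.85 in mTEClo, and 13.14 against 12.80. Those of H2-D1 gave, among others, 10.36 against 10.76, and 13.29 against 13.04. The level exceeded by 0.1% of probe sets differed in the same direction as the chosen heavy chain probe sets at 1 and at 6 months. It averaged 12.74 in mTEChi against 13.445 in mTEClo at 1 month, 12.82 against 13.30 at 3 months, and 13.64 against 13.13 at 6 months. The part of this level in the heavy chain differences, at single ages or on the mean over ages, was not tested.

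Counted over the 10 genes at adjusted p under 0.05 and any fold, 6 were higher and 1 lower in DC than in epithelium, where 36.1% of all genes were higher and 39.8% lower. In mTEChi against mTEClo 2 were higher and 5 lower (26.2% and 29.4% of all genes), and in cTEC against both mTEC populations none was higher and 5 were lower (25.0% and 27.2%). In Sirpa+DC against Sirpa-DC none was higher and 2 were lower (11.6% and 9.29%). In fibroblasts against the other 5 populations none was higher and 8 were lower (30.8% and 35.5%). The median difference over the 10 genes was 0.37 in DC against epithelium, where it was -0.01 over all genes, -0.31 in mTEChi against mTEClo (-0.04), -0.29 in cTEC against mTEC (-0.02) and -0.57 in fibroblasts against the others (-0.04).

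**Figure D3:**
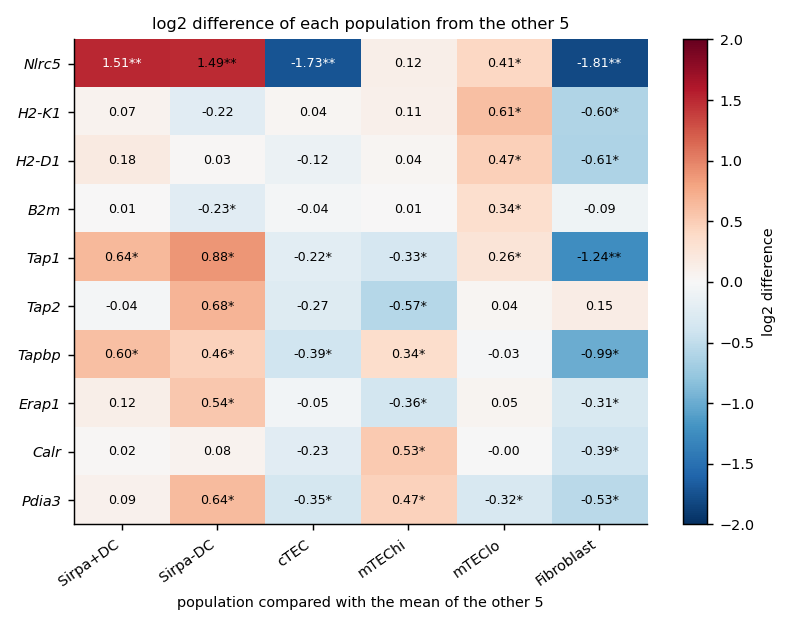
Log2 difference of each population from the mean of the other 5, for each of the 10 genes, as a colour scale; 1 star marks adjusted p under 0.05 and 2 stars mark also at least 2-fold. Fibroblasts are lower for 8 genes, both DC populations are higher for Nlrc5, Tap1 and Tapbp, and mTEClo for B2m, H2-K1 and H2-D1.

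In fibroblasts 2 of the 10 genes were at least 2-fold lower than in the other populations, Tap1 and Nlrc5 (3.50-fold, adjusted p = 2.35e-11), where 18.4% of all genes passed this rule. With the mean of the thymocyte markers as a covariate neither call remained, at -1.04 for Tap1 (adjusted p = 0.125) and -1.15 for Nlrc5 (adjusted p = 0.303). That mean was 8.78 to 11.12 in the fibroblast arrays and 5.67 to 8.68 in the others. As the 2 ranges do not overlap, the lost calls cannot show the part of thymocyte RNA in these differences, which was not tested.

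Other genes of the class I pathway were taken from lists. Of 4 tested immunoproteasome genes, 2 were at least 2-fold higher in Sirpa-DC than in the other populations, the catalytic subunit gene Psmb9 (log2 difference 1.01, adjusted p = 1.46e-08) and the activator gene Psme1 (1.01, adjusted p = 6.2e-09), where 6.2% of all genes were higher by this rule. The median of the 4 was 0.93, against -0.03 over all genes. In fibroblasts Psmb9 was lower by 1.54, and in cTEC Psme1 was lower by 1.07. Of 10 tested non-classical class I genes, 3 were higher and 2 lower in DC than in epithelium, where 8.6% of all genes were higher and 15.9% lower, among them Hfe (3.66), which takes part in iron handling, and Fcgrt (1.96), the heavy chain of the neonatal Fc receptor, on the higher side, and H2-Q2 (-3.85) and H2-Q10 (-1.38) on the lower. H2-Q10 was higher in mTEChi than in mTEClo by 4.10 (adjusted p = 3.62e-17).

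Of 19 tested class I regulators, 2 were at least 2-fold higher in DC than in epithelium and none was lower: the kinase gene Jak2 (1.65) and the transcription factor gene Irf8 (1.41), a share near the 8.6% of all genes. In fibroblasts against the others 1 was higher and 4 lower (8.38% and 9.98% of all genes), with the class II transactivator gene Ciita at -2.53 and the NF-kB subunit gene Relb at -1.95. In mTEChi against mTEClo 1 was higher and 4 were lower (11.8% and 7.81% of all genes), among them Stat2 (-1.59), Ifnlr1 (-1.36) and Ifngr1 (-1.33), which serve interferon signalling. Of 9 tested cross-presentation genes, 4 were higher and 1 lower in DC than in epithelium, led by Wdfy4 (5.06) and Rab43 (2.67), and 4 were higher in mTEChi than in mTEClo, led by the oxidase subunit gene Cybb (3.67) and Rac2 (2.71), where macrophage markers also averaged 7.05 in mTEChi, against 5.57 in mTEClo. The part of other cells in that difference was not tested. Of 22 tested chaperone and stress genes of the endoplasmic reticulum, 2 were higher in DC than in epithelium, Sdf2l1 (1.97) and Herpud1 (1.20), and 2 were higher in mTEChi than in mTEClo, Creld2 (1.43) and Sdf2l1 (1.32). Over all genes, 8.6% were higher and 15.9% lower in DC than in epithelium, and 11.8% higher and 7.81% lower in mTEChi than in mTEClo. None of 8 tested cytosolic and other peptidase genes passed in either comparison.

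Over the 18 means of population and age, Nlrc5 moved with Tapbp (Pearson r = 0.84) and Tap1 (0.78), less with H2-D1 (0.57) and H2-K1 (0.31), and not with B2m (0.00). H2-K1 and H2-D1 correlated at 0.93, and Tap1 and Erap1 at 0.78. The lowest coefficient of the 45 pairs was that of Tap2 and Calr, at -0.43. These coefficients describe 18 points that share their arrays. By the same measure the tested genes most like Nlrc5 were Basp1 (0.963), Ube2f (0.946) and Rnf19b (0.942). The most alike was Slc25a11 for Tapbp (0.946), Tes for Tap1 (0.902), Mapk1ip1l for Tap2 (0.889), Nfkbia for B2m (0.894), Lasp1 for H2-K1 (0.856), Ifih1 for H2-D1 (0.807), Hus1 for Erap1 (0.888), Yif1a for Calr (0.908) and Klhl5 for Pdia3 (0.858).

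**Figure D4:**
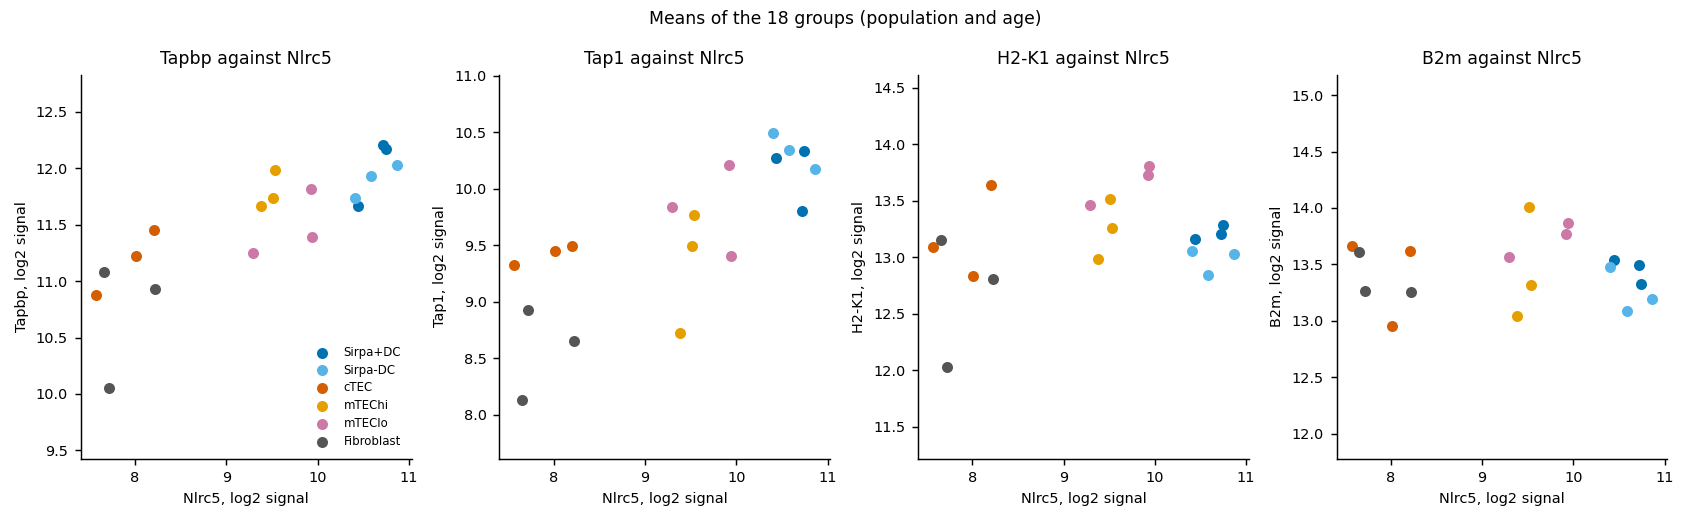
Log2 mean of 2 arrays of Tapbp, Tap1, H2-K1 and B2m (vertical axes) against that of Nlrc5 (horizontal axis), with 1 point for each of the 18 population and age groups and colour for population. Tapbp and Tap1 lie higher where Nlrc5 is higher, while B2m shows no such trend.

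With age, Pdia3 and Tap1 rose and Tapbp and Calr fell on the mean of the 6 populations. At 6 against 1 month the log2 differences were 0.66 for Pdia3 (adjusted p = 5.93e-06), 0.44 for Tap1 (adjusted p = 0.000204), -0.42 ± 0.10 (SE) for Tapbp (adjusted p = 0.00338) and -0.33 for Calr (adjusted p = 0.0122). These were 4 of the 10 genes, where 36.6% of all genes were called. At 3 against 1 month 3 of the 10 were called, against 6.34% of all genes: Tap1 at 0.50 ± 0.08 (adjusted p = 0.000854), Pdia3 at 0.30 and Calr at -0.36. At 6 against 3 months Pdia3 and B2m rose by 0.36 and 0.30 and Tapbp and Nlrc5 fell by 0.46 and 0.35, where 31.5% of all genes were called. The median over the 10 genes was -0.08 at 6 against 1 month, beside -0.06 over all genes.

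Not all of these shifts held under other processing. The rise of Tap1 at 3 and at 6 months and that of Pdia3 at 6 months held under every alternative that gave a value and without any 1 array. The fall of Calr lost its call without the fibroblast arrays, at -0.18 (adjusted p = 0.367) for 3 months and -0.08 (adjusted p = 0.613) for 6 months. A second Tapbp probe set was 0.26 higher at 6 than at 1 month on the mean of the populations, opposite to the chosen one, and a second Pdia3 probe set was 0.31 lower, also opposite. The rise of Pdia3 on the mean of the populations was thus seen in 1 of its 2 probe sets. Within populations the second Pdia3 probe set changed at 6 against 1 month by 0.29 in mTEClo and -1.39 in fibroblasts. It changed by -0.40 in cTEC, -0.12 in mTEChi, -0.18 in Sirpa-DC and -0.07 in Sirpa+DC. With every probe set averaged, Tapbp at 6 against 1 month was -0.08 (adjusted p = 0.44), and after quantile normalization B2m at 6 against 3 months was -0.10 and lost its call. At 6 against 3 months averaging also ended the calls of Tapbp (-0.07, adjusted p = 0.526) and Pdia3 (0.07, adjusted p = 0.361). Quantile normalization ended that of Pdia3 as well (0.22, adjusted p = 0.0869). The 3′ minus 5′ gap of Gapdh and Actb signals is a sign of RNA quality. It was lower at 6 than at 1 month in each population. With this gap as a covariate, Tapbp at 6 against 1 month was -0.10 (adjusted p = 0.656). Calr was then -0.15 (adjusted p = 0.427) for 3 months and 0.06 (adjusted p = 0.748) for 6 months. Neither gene kept these calls. Those of Pdia3 for 3 months and of Nlrc5 for 6 against 3 months were also lost. The 3-month calls of Calr and Pdia3 and the 6 against 3 months call of Nlrc5 held in 21, 14 and 23 of 36 fits that each left out 1 array, with adjusted p up to 0.114 in the others.

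Pdia3 by its chosen probe set rose in 4 populations taken singly. In mTEClo its 2 arrays were 8.73 and 9.32 at 1 month, 9.24 and 9.93 at 3 months, and 10.33 and 10.31 at 6 months. In Sirpa-DC they were 10.08 and 9.95, then 10.17 and 10.55, then 10.91 and 10.97. In Sirpa+DC they were 9.59 and 9.44, then 9.93 and 10.08, then 10.44 and 10.43. Both 6-month arrays lay above all 4 earlier ones in each of these populations, and also in mTEChi and cTEC, whereas in fibroblasts both lay below them. The rise at 6 against 1 month was 1.30 ± 0.22 in mTEClo (2.46-fold, adjusted p = 0.000418), 0.92 in Sirpa-DC (adjusted p = 0.0383), 0.92 in Sirpa+DC (adjusted p = 0.0233) and 0.75 in mTEChi (adjusted p = 0.0288), and the background of called genes was 6.42%, 0.904%, 2.06% and 9.51%. The mTEClo rise held without any 1 array, while the Sirpa-DC and Sirpa+DC calls were lost without any 1 of the 4 arrays compared, with adjusted p between 0.121 and 0.326 and differences of 0.84 to 0.99. That of Sirpa-DC was also lost without either 3-month mTEChi array or either 6-month Sirpa+DC array, with adjusted p up to 0.0515. Quantile normalization and averaging of every probe set also ended the Sirpa-DC call (adjusted p = 0.118 and 0.231) and the Sirpa+DC call (adjusted p = 0.084 and 0.104). The 3′ minus 5′ difference of the Gapdh and Actb control probe sets, a sign of RNA quality, averaged 1.80 at 1 month and 1.42 at 6 months in Sirpa-DC, 1.78 and 1.47 in Sirpa+DC, and 2.67 and 1.91 in mTEClo. With it as a covariate the Sirpa-DC call was lost (0.78, adjusted p = 0.0899), and those in Sirpa+DC and mTEClo were kept. The mTEChi call was lost without either 1-month array (0.72 and 0.79) or without the first 6-month array (0.57), and with quantile normalization (0.45), averaging of every probe set (0.32), array weights (adjusted p = 0.283) or only the groups compared (adjusted p = 0.137).

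Tap1 was higher at 3 months than at 1 month in both mTEC populations, and the difference was called in mTEClo only. Its mTEClo arrays were 9.34 and 9.47 at 1 month, 10.26 and 10.17 at 3 months, and 9.82 and 9.86 at 6 months. Its mTEChi arrays were 8.73 and 8.71, then 9.88 and 9.66, then 9.44 and 9.56. In both populations the 3 ages did not overlap, and 3 months was highest. The difference at 3 against 1 month was 0.81 ± 0.20 in mTEClo (adjusted p = 0.0296, 1.77% of genes called), where leaving out any 1 of the 4 arrays gave 0.74 to 0.87 and no call of Tap1. With the thymocyte mean as a covariate it was 0.75 and not called (adjusted p = 0.107), and the thymocyte mean averaged 6.61 at 1 month and 5.69 at 3 months. In mTEChi it was 1.05 (adjusted p = 0.0826), where limma called 0.0% of genes and 385 had an unadjusted p under 0.05. At 6 against 1 month mTEChi had 3 calls, Tap1 at 0.78 (adjusted p = 0.0139), Pdia3 above, and B2m at 0.96 ± 0.23 (adjusted p = 0.00863).

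B2m in mTEChi had 13.24 and 12.84 at 1 month, 13.44 and 13.20 at 3 months, and 14.10 and 13.91 at 6 months. The level exceeded by 0.1% of probe sets averaged, in the same arrays, 12.74, 12.82 and 13.64 at these ages. After quantile normalization, which removes such differences, the B2m difference was -0.11 and no call. A second B2m probe set gave 0.94 on the deposited scale. Without the second 1-month array the difference was 0.76 and lost its call. The Tap1 call in mTEChi was also lost without either 1-month array (0.79 and 0.76) and without the second 6-month array (0.72). With array weights neither Tap1 (adjusted p = 0.22) nor B2m (adjusted p = 0.139) was called, and with only the groups compared Tap1 was not (adjusted p = 0.13).

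In cTEC none of the 10 genes was called at 3 or at 6 against 1 month, where 5.4% and 6.45% of all genes were. Tap1 there was 9.46 and 9.53 at 1 month, 9.44 and 9.45 at 3 months, and 9.60 and 9.05 at 6 months. Both DC populations had no call among the 10 at 3 months, where 0.331% of genes in Sirpa+DC and 0.0345% in Sirpa-DC were called.

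**Figure D5:**
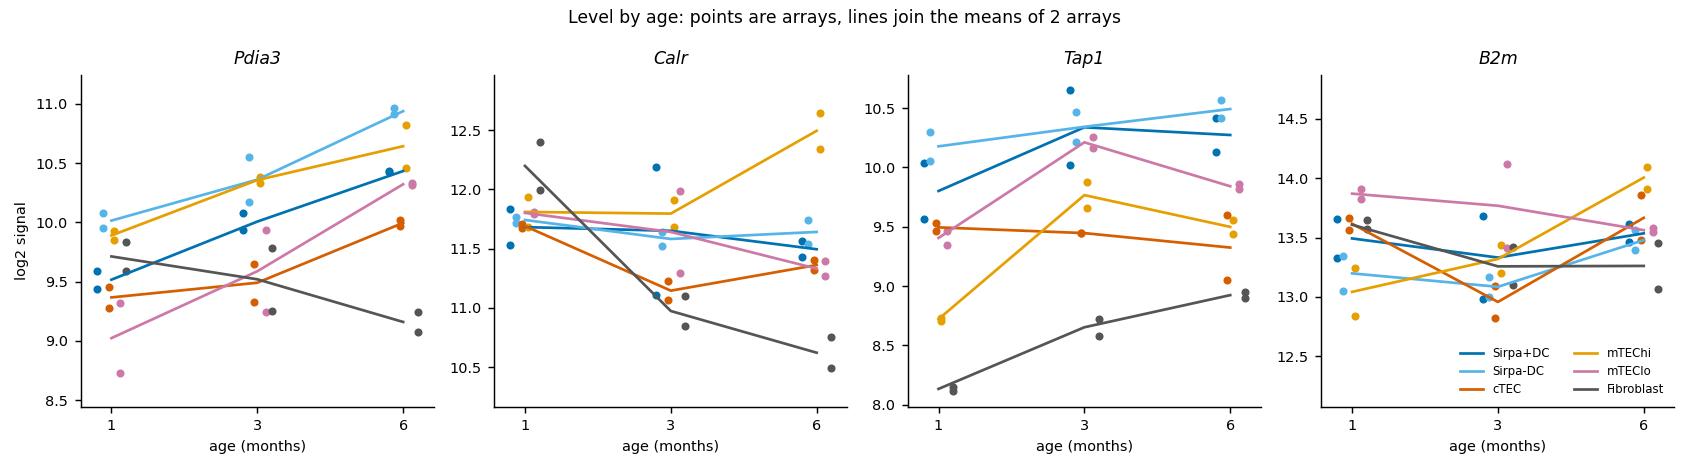
Log2 level of Pdia3, Calr, Tap1 and B2m by age in months, 1 panel for each gene, with a point for each array and lines through the means of 2 arrays in the colour of the population. Pdia3 is highest at 6 months in all populations except fibroblasts, Calr is lower in fibroblasts at 3 and 6 months than at 1 month, and Tap1 peaks at 3 months in both mTEC populations.

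Fibroblasts had the most calls with age among the 10 genes. Calr was 12.40 and 11.99 at 1 month, 11.10 and 10.84 at 3 months, and 10.75 and 10.49 at 6 months, with no overlap between ages. It fell by 1.22 ± 0.24 at 3 against 1 month (adjusted p = 0.000988), the only call among 10 where 20.4% of all genes were called, and by 1.58 ± 0.24 at 6 against 1 month, 2.98-fold (adjusted p = 3.95e-05). Both falls held under every alternative and without any 1 array, and both other Calr probe sets fell to the same side, at -1.71 and -1.62 for 6 months. At 6 against 1 month 6 of the 10 genes were called, where 36.2% of all genes were.

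Tap1 rose in fibroblasts by 0.79 ± 0.20 (adjusted p = 0.00292), with 8.12 and 8.15 at 1 month, 8.58 and 8.72 at 3 months, and 8.95 and 8.90 at 6 months, ages that did not overlap. The other 4 fell. H2-K1 had 13.21 and 13.09 at 1 month, 13.04 and 12.57 at 3 months, and 12.55 and 11.50 at 6 months, a fall by 1.12 ± 0.29 at 6 against 1 month (adjusted p = 0.00367). Tapbp had 11.15 and 11.00, then 11.14 and 10.72, then 10.36 and 9.74, a fall by 1.03 ± 0.26 (adjusted p = 0.0031). H2-D1 fell by 0.77 ± 0.24 (adjusted p = 0.0159) and Pdia3 by 0.55 ± 0.22 (adjusted p = 0.0487). Without the second 6-month fibroblast array, the lowest for these 2 heavy chains and Tapbp, the differences were -0.60 for H2-K1, -0.71 for Tapbp and -0.46 for H2-D1, and none of the 3 was called. The H2-D1 call was also lost without either 1-month array, at -0.77 and -0.76, and the Pdia3 call held in 13 of 36 fits without 1 array, with differences of -0.68 to -0.43.

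Other measures of the fibroblast arrays moved with age beside these genes. Of the 6 fibroblast markers, 2 were lower at 3 against 1 month, with a median difference of -1.01, and all 6 were lower at 6 against 1 month, with a median of -2.39. Their mean lay between 8.92 and 12.83 in the 6 fibroblast arrays, and their part in the falls of Calr, H2-K1, Tapbp and H2-D1 was not tested. The mean of the thymocyte markers was 9.54 at 1 month, 10.38 at 3 months and 10.96 at 6 months, and the 3′ minus 5′ difference of the Gapdh and Actb control probe sets was 2.76, 2.11 and 1.79. With either of these last measures as a covariate H2-K1, Tapbp and H2-D1 lost their calls, while Calr and Tap1 kept theirs, and Pdia3 lost its own with the thymocyte mean. Of the 22 chaperone and stress genes, 10 were lower and none higher in fibroblasts at 6 against 1 month, led by Creld2 (-1.60), Pdia6 (-1.41), P4hb (-1.20) and Sdf2l1 (-1.17), with a median of -0.36 beside -0.07 over all genes, of which 20.4% were lower and 15.8% higher. In mTEChi 4 of the 22 were higher and none was lower (6.17% and 3.34% of all genes), among them Hspa5 (0.91), Manf (0.85) and Xbp1 (0.65). On the mean of the 6 populations, 7 of 19 class I regulators rose and 3 fell at 6 against 1 month, where 14.9% of all genes rose and 21.7% fell, with Stat2 (1.06) and Ifngr2 (0.65) on the higher side and Irf8 (-0.61) and Relb (-0.55) on the lower.

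The change with age differed between populations for 2 of the 10 genes, Calr (F = 5.06, adjusted p = 0.00934) and Pdia3 (F = 4.49, adjusted p = 0.0155), by a moderated F test over the 10 contrasts of the age by population interaction, where 15.7% of all genes were called. In mTEChi Calr had 12.34 and 12.64 at 6 months, against 11.93 and 11.69 at 1 month, whereas in fibroblasts both 6-month arrays lay below all others. Without the fibroblast arrays neither gene was called, at F = 2.22 for Calr (adjusted p = 0.298) and 0.91 for Pdia3 (adjusted p = 0.781). Without the first 1-month fibroblast array F was 3.51 for Calr and 3.24 for Pdia3, and without the second 6-month fibroblast array it was 3.00 for Pdia3, none of them called.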

How the data were processed

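The values are log2 expression levels that the authors deposited as a normalized table. Per the submitters' processing notes GCRMA was used, and per the series' design text the arrays were normalized in Gene Expression Commons; the log base is inferred from their range. Of 45101 probe sets, 64 are controls, 34945 have 1 gene symbol and 932 several, and those with several were not used. A gene was tested where its probe set exceeded the pooled median of 5.66 in at least 2 arrays. limma 3.58.1 (R 4.3.3) fitted 18 group means to 36 arrays (empirical Bayes with an intensity trend), with Benjamini-Hochberg adjustment over 14495 genes. Population comparisons were called at adjusted p under 0.05 and 2-fold, and ages and pairs at adjusted p under 0.05. The fit was tested on simulated data. Tables and figures used Python 3.11.15, pandas 2.3.3 and matplotlib 3.10.9. The 10 genes, the pathway lists and the marker lists were chosen with earlier results of these data known. Of each pathway list, up to 4 called genes with the largest change in a comparison could be named, and for likeness up to 3 for each of the 10 genes. Alternatives were other normalizations, filters, probe set rules, variance models, weights, covariates, a replicate block, and fits without single arrays.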

Additional observations from a re-analysis of the deposited data

Results flagged for a closer look

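In 3 of 60 sets of 6 arrays (each gene in each population), 1 array stood apart by Dixon's test, where chance gives about 1 in 20. Tap1 in cTEC was lowest in the second 6-month array, at 9.05, where the next array had 9.44 and the gap was 0.718 of the whole range. Tap2 in Sirpa+DC was highest in the first 3-month array, at 9.25, where the next had 8.34 (0.655 of the range). Erap1 in Sirpa-DC was lowest in the second 3-month array, at 8.65, where the next had 8.88 (0.733 of the range). The change with age differed between populations for Calr (adjusted p = 0.00934) and for Pdia3 (adjusted p = 0.0155), by the moderated F test of limma. For both genes fibroblasts moved downwards with age. By its chosen probe set Pdia3 was higher at 6 than at 1 month in each of the other 5 populations. By its second probe set it was higher in mTEClo only.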

How the results depend on the processing

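Of 338 counts of called genes recomputed under alternatives, 303 stayed within 1.5 times of those reported, and 12 of the 34 single changes called kept their call under every alternative and without any 1 array. After quantile normalization the sign turned for B2m on the mean of the populations at 6 against 1 month (-0.13) and 6 against 3 months (-0.10), for Calr at 6 against 3 months (-0.19) and for B2m in mTEChi at 6 against 1 month (-0.11); with the 3′ minus 5′ covariate it turned for Calr on the mean at 6 against 1 month (0.058). Counts of called genes among the 10 moved as follows. Quantile normalization gave 8 (from 4) on the mean at 6 against 1 month, 7 (from 4) at 6 against 3 months, 1 (from 3) in mTEChi at 6 months, 0 (from 1) in each DC population at 6 months and 2 (from 1) in fibroblasts at 3 months; equal array medians also gave 2 there. Averaging every probe set that carries a symbol, under which Tap1 falls below the filter, gave 1 (from 2) for fibroblasts against the others, 1 (from 3), 2 (from 4) and 2 (from 4) for the 3 mean age comparisons (3 against 1, 6 against 1 and 6 against 3 months), and 0 (from 1) in mTEClo at 3 months and in each DC population at 6 months. The thymocyte covariate gave 0 for fibroblasts against the others, 0 in mTEClo at 3 months, 2 (from 6) in fibroblasts at 6 months, 0 (from 2) for the interaction and 3 (from 12) for neighbouring populations. The 3′ minus 5′ covariate gave 1 on the mean at 3 months, 5 in mTEChi and 0 in Sirpa-DC at 6 months, 2 in fibroblasts at 3 months and 3 at 6 months. Array weights gave 2 (from 0) in cTEC and 1 (from 0) in mTEChi at 3 months, and 3 in mTEClo and 0 in mTEChi at 6 months. Fitting only the groups compared gave 1 in cTEC at 3 months, and 1 in mTEChi and 2 in fibroblasts at 6 months. Without the fibroblast arrays the interaction gave 0. Replicate numbers were to be taken as pairs only if every correlation of deviations between same-numbered samples was over 0.1. Of 45 correlations 17 were (10 of 15 at 3 months, median 0.086 over all ages), so the main fit held no pairing. The largest was 0.418, for Sirpa-DC and Sirpa+DC at 3 months, and whether animals were shared cannot be told from this. A replicate block gave 1 (from 0) in cTEC at 6 months, 3 (from 1) in fibroblasts at 3 months and 5 (from 2) for the interaction. Leaving out 1 array at a time (36 fits) gave 2 to 3 for fibroblasts against the others, 1 to 3, 4 to 5 and 3 to 6 for the mean age comparisons in the order above, 0 to 1 in mTEClo, 0 to 1 in mTEChi and 1 to 3 in fibroblasts at 3 months, 1 to 1 in mTEClo, 0 to 4 in mTEChi, 0 to 1 in each DC population and 2 to 6 in fibroblasts at 6 months, 0 to 6 for the interaction and 10 to 14 for neighbours. The causes were not tested, except that fewer arrays or genes enter some of these fits. The 2 arrays of a group limit what the age comparisons within 1 population can show.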
